A study of Mus musculus with 4 samples.

Results

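Chemokines and their receptors were examined in soleus muscles of *mdx* mice, a mouse model of Duchenne muscular dystrophy that lacks dystrophin. The members were all genes of the deposited table whose symbol starts with Ccl, Cxcl, Cx3cl, Xcl, Ccr, Cxcr, Cx3cr, Xcr or Ackr followed by a number, which gave 62 of 24054 genes: 39 ligands and 23 receptors, 4 of them atypical receptors. RNA from soleus, a slow hindlimb muscle, was sequenced from 2 mice that had been infused with mouse cardiosphere-derived cells (mCDCs) and from 2 that had been infused with vehicle. All were female *mdx* mice on the C57BL/10ScSn background, so every library, controls included, carries the *mdx* mutation. Infusions into the femoral vein began at 8 weeks of age and were repeated monthly over 12 months of treatment. The mCDCs were cells of passage 5 grown from the heart of 1 C57BL/10ScSn/J donor mouse, and the vehicle was Iscove's Modified Dulbecco's Medium (IMDM). No healthy muscle was sequenced, so the levels below cannot be set against a muscle with dystrophin.

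Chemokines are small secreted proteins that bind heparan sulfate on cells and matrix and guide leukocytes along their gradients. Conventional receptors couple to inhibitory G proteins and turn the gradient into movement, whereas atypical receptors bind chemokines without that signal and take them up or carry them across endothelium. Homeostatic chemokines are made continuously by stromal, endothelial or epithelial cells, and inflammatory ones are induced by cytokines. In dystrophic muscle, the axis of Ccl2 and Ccr2 is known for bringing monocytes to damaged fibers. A lower count in bulk RNA can come from fewer cells of a type or from less RNA per cell, and these cannot be told apart here.

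The libraries held between 22481391 and 27187425 expected counts. These are estimates from the program RSEM, which splits reads that match more than 1 transcript, and 14 of the 62 members had a value that was not whole. Levels are given as CPM, the count relative to library size times 1e6, after scaling of the libraries by the trimmed mean of M-values. Genes were tested with edgeR's quasi-likelihood test, and "called" below means changed more than 1.5-fold at an unadjusted p under 0.05. The low-count filter kept 13652 genes. No gene of the 13652 had a Benjamini-Hochberg adjusted p under 0.05 in edgeR's quasi-likelihood test (0 genes, against 947 at an unadjusted p under 0.05). DESeq2 gave 48 genes with an adjusted p under 0.05, 0 of them members. The slow myosin gene Myh7 lay between 38200 and 47500 CPM in the 4 libraries.

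Few chemokine genes were abundant in these muscles. 8 members had no count in any library (Ccl1, Ccl20, Ccl26, Ccl27b, Cxcl3, Ccr3, Ccr8 and Cxcr1), where a count of 0 allows up to 3 counts per library. Ccl27b has no such limit, because it shares 100% of its 31-base words with other genes of the table, 98.2% with Gm13306, which had 13.46 counts in vehicle replicate 1. 20 members, these 8 included, had at most 3 counts in each library. 32 members, 20 ligands and 12 receptors, passed the filter and were tested, and 22 of the other 30 had at least some count. Only 17 members averaged at least 1 CPM over the 4 libraries and 4 averaged at least 10 CPM: Cxcl12, Cx3cl1, Cxcl14 and Ackr3. Those 4 genes held 72.6% and 79.8% of all chemokine CPM with mCDCs (replicates 1 and 2) and 73% and 72.3% with vehicle.

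**Figure D1:**
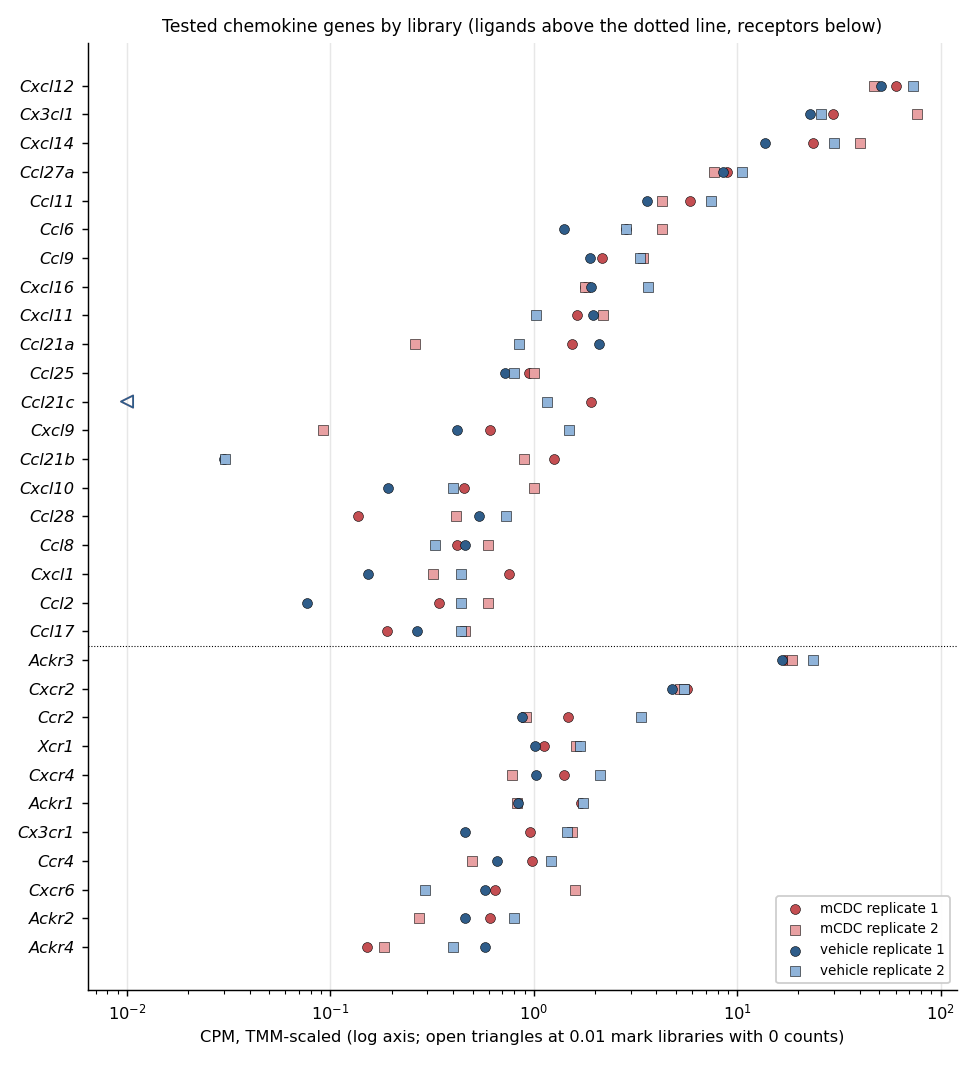
CPM of 31 tested members in each library on a log axis, ligands above the dotted line and receptors below it; circles are replicate 1 and squares replicate 2 of mCDC (red) and vehicle (blue), and the open triangle marks Ccl21c, which had 0 counts in mCDC replicate 2 and vehicle replicate 1. The red and blue points intermingle for 22 of the 31 genes.

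Of the 32 tested members, Ccl21b and Cx3cl1 were called higher in mCDC muscles and Ackr4 was called lower. That is 6.25% of the tested members higher and 3.12% lower, where 1.26% of all tested genes were called higher and 2.74% lower. Both mCDC libraries lay above both vehicle libraries for 6 members (18.8%: Ccl21b, Ccl25, Ccl6, Cx3cl1, Cxcl10 and Cxcr6), where 19.2% of all tested genes did. Both lay below for 3 members (9.38%: Ackr4, Ccl28 and Cxcl16), where 19.4% of all tested genes did. Among the tested members, 16 had a log2 fold change above 0 and 16 below it, with a median of 0.05 beside -0.0094 over all tested genes. The median size of the log2 fold change, without its sign, was 0.49 for the members and 0.18 for all tested genes. Most tested members had low counts, and the comparison with all tested genes was not matched on count. The smallest adjusted p of a member was 0.2 by edgeR's quasi-likelihood test, for Ccl21b. 15 of the 32 members changed sign when 1 of the 4 libraries was left out.

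**Figure D2:**
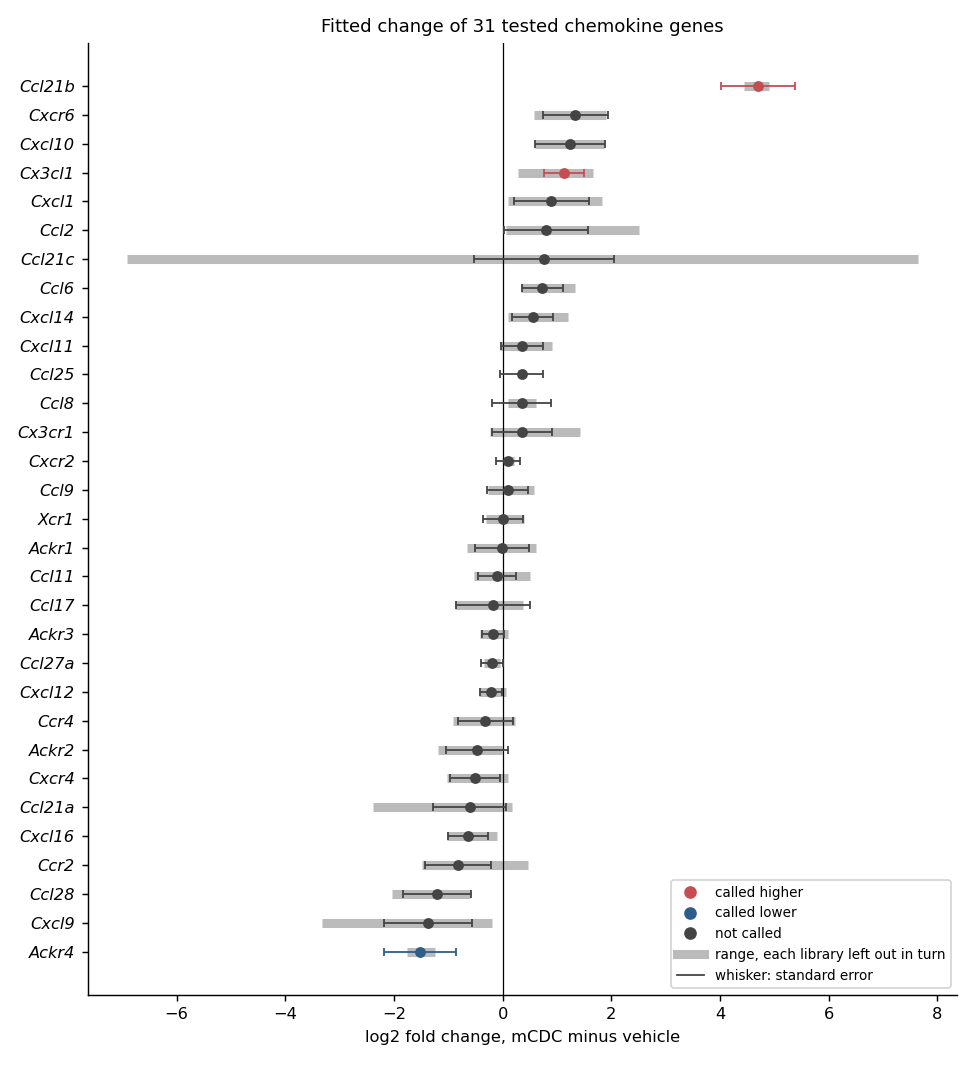
Log2 fold change (mCDC minus vehicle) of 31 tested members with its standard error as the whisker; the grey bar runs from the lowest to the highest value with each library left out in turn. Ccl21b, at 4.70, stands apart from the rest, and the grey bar of Ccl21c runs from -6.91 to 7.64.

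Ccl21 is made by lymphatic endothelium and lymph node stroma and guides dendritic cells and T cells through Ccr7. The mouse genome holds several nearly identical copies of its gene, and 3 of them, Ccl21a, Ccl21b and Ccl21c, carry a member's symbol. 4 further rows of the table belong to the same group. Gm10591, Gm13304 and Gm21541 (Ccl21d in RefSeq) share at least 50% of 31-base words with a Ccl21 gene, counted over their own words or over those of that gene. Gm1987 was counted with them although no transcript sequence of it or of Ccl21c was used here. On GRCm38 the placed copies lie on chromosome 4, with Ccl21a at chr4:42772860-42773993 on the minus strand and Ccl21b at chr4:42255767-42256432, Gm10591 at chr4:42612195-42612860, Gm13304 at chr4:42114817-42115917 and Gm21541 at chr4:41903610-41904743 on the plus strand. The 402 coding bases of Ccl21b are identical in Gm10591, Gm13304 and Gm21541. Those of Ccl21a differ from them at 2 bases, A84T and T194C (Ccl21b base first, counted from 1 at the start codon), of which the first leaves the residue as it is (G28G) and the second changes it (L65S). The windows around both bases, each as long as the 75-base reads of this study, show how little separates the copies. They are printed 5′ to 3′ from the transcript sequences of GENCODE, with the base that differs in capitals.
Ccl21a, coding bases 47 to 121: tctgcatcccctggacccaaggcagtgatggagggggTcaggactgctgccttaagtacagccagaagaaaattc
Ccl21b, coding bases 47 to 121: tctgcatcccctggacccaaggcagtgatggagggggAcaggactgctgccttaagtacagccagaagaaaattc
Ccl21a, coding bases 157 to 231: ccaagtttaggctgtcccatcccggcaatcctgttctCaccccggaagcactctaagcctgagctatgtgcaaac
Ccl21b, coding bases 157 to 231: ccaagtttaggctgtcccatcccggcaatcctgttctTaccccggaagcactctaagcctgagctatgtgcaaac
A 75-base read that lies inside the coding sequence covers either of the differing bases from 150 of its 328 possible starts (45.7%). All of the 31-base words of Ccl21b occur in other listed genes, as do 80.6% of those of Ccl21a.

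The mCDC libraries gave 33.17 (replicate 1) and 19.56 (replicate 2) expected counts for Ccl21b, and the vehicle libraries 0.79 and 0.83. Both mCDC libraries were thus above 1 count and both vehicle libraries below it. These counts rest on how RSEM divided reads between rows with one coding sequence, so they set no bound on the fold change. The fitted log2 fold change of 4.70 (SE 0.68, adjusted p = 0.2 by edgeR's quasi-likelihood test) depends on how near 0 the vehicle counts are. Over the alternatives, its adjusted p ran from 0.0496 without mCDC replicate 2 to 0.558 without vehicle replicate 2, both by edgeR's quasi-likelihood test. Gm21541, whose coding sequence is that of Ccl21b, had the reverse pattern, with 0 and 1.97 expected counts with mCDCs and 47.21 and 37.47 with vehicle, and was called lower (adjusted p = 0.2 by edgeR's quasi-likelihood test). When the 4 rows with one coding sequence were added, Ccl21b, Gm10591, Gm13304 and Gm21541 together had 33.2 and 26.1 expected counts with mCDCs and 48.2 and 38.3 with vehicle. The sum therefore lay lower in both mCDC libraries, at 1.22 ± 0.0452 CPM (SD, n = 2) against 1.62 ± 0.314 (SD, n = 2), opposite to the direction of Ccl21b on its own. An exact two-sided permutation test of this sum gave p = 0.333, the smallest p that 2 against 2 libraries allow. This sum was not among those planned, and it leaves out Ccl21c and Gm1987, of which no transcript sequence was used here. Whether those rows share the coding sequence was not tested, so the direction is that of these 4 rows only.

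The other copies varied within the groups. Ccl21a had 40.78 and 5.66 expected counts with mCDCs and 55.14 and 23.2 with vehicle, with a log2 fold change of -0.61 (SE 0.68). Ccl21c had 50.48 and 0 with mCDCs and 0 and 31.79 with vehicle, so that each group held a library with no count beside one with many. Gm1987 held the most counts of the 7 rows in each of the 4 libraries, with 96.57 and 31.24 with mCDCs and 89.69 and 95.7 with vehicle.

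Summed over all 7 rows, the Ccl21 copies had 221 and 63 expected counts with mCDCs and 193 and 189 with vehicle. These sums were whole to 1 decimal place in every library, whereas the 6 rows without Gm1987 summed to 124.4, 31.8, 103.3 and 93.3. In CPM the 7 rows held 5.62 ± 3.88 (SD, n = 2) with mCDCs and 7.12 ± 0.346 (SD, n = 2) with vehicle. The vehicle libraries lay between the mCDC libraries, of which replicate 2 was the lowest of all 4 (exact two-sided permutation test, p = 1). The fitted log2 fold change of the sum was -0.32 (SE 0.41, adjusted p = 0.861 by edgeR's quasi-likelihood test). It was -1.30 without mCDC replicate 1, 0.23 without mCDC replicate 2, and 0.51 when only Ccl21a, Ccl21b and Ccl21c were added, so no direction held for the sum.

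**Figure D3:**
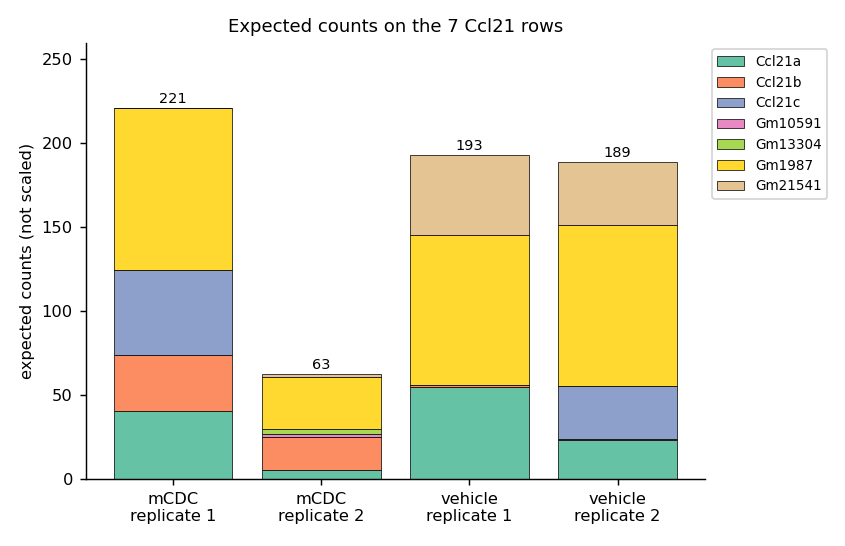
Expected counts, not scaled, on the 7 Ccl21 rows in each library, stacked by row with the total above each bar. The orange Ccl21b segment forms a wide band in the mCDC bars only, the tan Gm21541 segment forms one in the vehicle bars only, and the totals are 221, 63, 193 and 189.

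Ccl19, the other Ccr7 ligand, had 6, 5, 9 and 7 counts and was not tested, and Ccr7 itself, the receptor of mature dendritic cells and naive T cells, had 1, 0, 3 and 3 (mCDC replicates 1 and 2, then vehicle replicates 1 and 2, the order used for each run of 4 values below). Ackr4, at chr9:104084157-104126933 on GRCm38, is the atypical receptor that scavenges Ccl19, Ccl21 and Ccl25. It had 4 and 4 counts in mCDC muscles and 15 and 11 in vehicle muscles, so the groups did not overlap but every value was small. Its level was 0.167 ± 0.0221 CPM (SD, n = 2) with mCDCs and 0.486 ± 0.122 (SD, n = 2) with vehicle, a log2 fold change of -1.52 (SE 0.66, adjusted p = 0.713 by edgeR's quasi-likelihood test). It was not called by DESeq2 (-1.53), with the replicate number as a block (-1.53), or without any 1 of the 4 libraries (-1.76 to -1.24). 7.92% of its 31-base words also lie in Acad11, which overlaps it on the opposite strand and had 41.7 to 52.2 CPM, so reads from there cannot be told apart if counting did not use strand.

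Of 7 tested markers of lymphatic endothelium, 3 were called lower, where 2.74% of all tested genes were, and the median log2 fold change was -0.67. Prox1, a transcription factor of lymphatic endothelium, had 4.54, 3.15, 9.81 and 4.73 CPM. Flt4, the receptor of Vegfc, had 3.64, 3.47, 4.58 and 7.28 CPM, and Reln had 1.06, 0.731, 1.98 and 1.93 CPM. The log2 fold change of Prox1, -0.91, was -0.29 without vehicle replicate 1, and that of Flt4, -0.74, was -0.37 without vehicle replicate 2. Pdpn, with 7.84, 7.4, 5.3 and 6.55 CPM, lay higher in both mCDC libraries, and Pdpn, Lyve1 and Mmrn1 were not called. The summed level of the list, without members, was 37.5 and 39.9 CPM in mCDC libraries and 47.6 and 43 in vehicle libraries. Which cells of the whole muscle gave the counts of Prox1 and the other markers was not tested. The part of lymphatic cell number in the values of Ackr4 and the Ccl21 copies was not tested either. Of lymph node markers, Ms4a1 had no count and Madcam1 was at 0.0728 CPM or less, while Clu, which other tissues also express, was called higher.

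Cxcl12, which retains stem cells and leukocytes in tissue through Cxcr4, was the chemokine gene with the most counts on average. It had 60.4, 47.1, 51.1 and 73 CPM, a log2 fold change of -0.21 (SE 0.20), and the groups overlapped. Cxcr4 had 1.4, 0.777, 1.03 and 2.11 CPM, with a log2 fold change of -0.51 (SE 0.46). Ackr3, which takes up Cxcl12 and so shapes its gradient, had 17.2, 18.5, 16.6 and 23.7 CPM and a log2 fold change of -0.18 (SE 0.20). In all of these 3 genes vehicle replicate 2 was the highest library. The SE of 0.20 that Cxcl12, Ackr3 and Ccl27a share was the smallest of the 32 tested members.

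Cxcl14, a homeostatic chemokine of stromal and epithelial cells, had 23.5, 40, 13.7 and 29.8 CPM. Each group varied more than 1.5-fold between its own libraries and the groups overlapped, with a log2 fold change of 0.55 (SE 0.37, adjusted p = 0.767 by edgeR's quasi-likelihood test). It ran from 0.10 without vehicle replicate 1 to 1.21 without vehicle replicate 2, was 0.12 without mCDC replicate 2, and was called at 0.60 with the replicate number as a block. Cxcl13, which organizes B cells, had 1, 2, 1 and 0 counts, and its receptor Cxcr5 had 11, 6, 9 and 6.

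Cx3cl1, or fractalkine, is made as a membrane-anchored protein on endothelial and other cells, where it holds leukocytes that carry Cx3cr1, and is shed by Adam10 and Adam17. It lies at chr8:94772009-94782427 on GRCm38. It had 29.6 and 76.7 CPM with mCDCs and 22.8 and 25.8 CPM with vehicle (replicates 1 and 2). mCDC replicate 2 stood far above the other 3 libraries, and mCDC replicate 1 only just above the vehicle libraries. The means were 53.2 ± 33.4 CPM (SD, n = 2) and 24.3 ± 2.1 CPM (SD, n = 2), a log2 fold change of 1.13 (SE 0.37, adjusted p = 0.673 by edgeR's quasi-likelihood test). Without mCDC replicate 2 the log2 fold change was 0.28 and Cx3cl1 was not called, and without mCDC replicate 1 it was 1.66. Over the alternatives, its adjusted p ran from 0.00051 without mCDC replicate 1 to 1 without mCDC replicate 2 by edgeR's quasi-likelihood test. It was not called by DESeq2 either, at 1.14, nor without vehicle replicate 1, at 1.05, or vehicle replicate 2, at 1.22.

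None of the other genes of that axis was called. Cx3cr1, the fractalkine receptor of monocytes and tissue macrophages, had 0.955, 1.54, 0.458 and 1.46 CPM and a log2 fold change of 0.35 (SE 0.55), with overlapping groups. Adam10 had 14.8 to 17.9 CPM and Adam17 18.5 to 25 CPM over the 4 libraries. Cx3cl1 lies on chromosome 8 between 2 other chemokine genes, Ccl22 at chr8:94745590-94751699 and Ccl17 at chr8:94810453-94812036. Both are ligands of Ccr4 on Th2 and regulatory T cells and both were low, Ccl22 with 2, 1, 3 and 2 counts and Ccl17 with 5, 10, 7 and 12. Ccr4 had 0.974, 0.494, 0.662 and 1.22 CPM and a log2 fold change of -0.32 (SE 0.51).

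Cxcl16 is the other membrane-anchored chemokine, and its receptor Cxcr6 marks tissue-resident and effector T cells. The ligand was lower and the receptor higher in both mCDC libraries, and neither was called. Cxcl16 had 1.79, 1.78, 1.9 and 3.65 CPM, so that only vehicle replicate 2 stood apart, and its log2 fold change was -0.64 (SE 0.37, adjusted p = 0.747 by edgeR's quasi-likelihood test), or -0.10 with that library left out. 18.5% of its 31-base words lie in Zmynd15, which had 0.605 CPM or less. Cxcr6 had 0.644, 1.6, 0.572 and 0.291 CPM, highest in mCDC replicate 2, and a log2 fold change of 1.34 (SE 0.60, adjusted p = 0.721 by edgeR's quasi-likelihood test) that was 0.58 when mCDC replicate 2 was left out. Of T cell markers, 4 were tested, and Cd28 was called lower and none higher. Over all tested genes, 2.74% were called lower and 1.26% higher. Cd3e had at most 0.0757 CPM.

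The monocyte attracting ligands lie together on chromosome 11, from Ccl2 at chr11:82035571-82037453 to Ccl8 at chr11:82115185-82116799, with Ccl7, Ccl12 and the eosinophil ligand Ccl11 between them. Ccl2, Ccl7, Ccl8 and Ccl12 were each below 1 CPM in every library. Ccl2 had 0.341, 0.594, 0.0763 and 0.437 CPM, with vehicle replicate 1 the lowest, and a log2 fold change of 0.80 (SE 0.77) that was 0.07 without vehicle replicate 1 and 2.51 without vehicle replicate 2. Ccl7 had 4, 18, 7 and 5 counts and Ccl12 had 3, 5, 4 and 4, and neither was tested. Ccl8 had 0.417, 0.594, 0.458 and 0.327 CPM and a log2 fold change of 0.35 (SE 0.54). Ccr2, through which inflammatory monocytes respond to Ccl2 and Ccl7, had 1.48, 0.914, 0.878 and 3.37 CPM. Vehicle replicate 2 alone was high, and the log2 fold change of -0.82 (SE 0.60) was 0.46 without that library.

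Ccl6 and Ccl9, ligands of Ccr1 found in the mouse and made by myeloid cells, each averaged more than 1 CPM. Ccl6 had 2.84, 4.29, 1.41 and 2.84 CPM. mCDC replicate 1 and vehicle replicate 2 were almost equal, and the log2 fold change was 0.73 (SE 0.38, adjusted p = 0.735 by edgeR's quasi-likelihood test). It ran from 0.33 without vehicle replicate 1 to 1.33 without vehicle replicate 2, and Ccl6 was called at 0.78 with the replicate number as a block. Ccl9 had 2.16, 3.44, 1.88 and 3.32 CPM and a log2 fold change of 0.09 (SE 0.37), so replicate 2 was the higher in each group. Their receptor Ccr1 had 5, 3, 2 and 7 counts.

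Ccl3, Ccl4 and Ccl5, which attract T cells and macrophages, were near 0. Ccl3 had 1, 3, 0 and 3 counts, Ccl4 had 2, 2, 0 and 0, and Ccl5 had 1, 0, 3 and 6. With no filter on low counts, Ccl5 and the Ccl25 receptor Ccr9, with 4, 2, 9 and 12 counts, were called lower and Ccl4 was called higher. Xcr1, a receptor of cross-presenting dendritic cells, had 1.12, 1.62, 1.01 and 1.68 CPM and its ligand Xcl1 had 2 counts, both in vehicle replicate 2.

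Cxcl9, Cxcl10 and Cxcl11 are induced by interferons, lie side by side on chromosome 5 (chr5:92321347-92328079, chr5:92346638-92348889 and chr5:92359544-92365485) and share the receptor Cxcr3. Their log2 fold changes did not share a sign. Cxcl10 had 0.454, 1.0, 0.191 and 0.4 CPM, above the vehicle libraries in both mCDC libraries, with a log2 fold change of 1.24 (SE 0.64, adjusted p = 0.731 by edgeR's quasi-likelihood test). Cxcl9 had 0.606, 0.0914, 0.42 and 1.49 CPM, with the lowest value in the library where Cxcl10 was highest, and a log2 fold change of -1.38 (SE 0.81, adjusted p = 0.747 by edgeR's quasi-likelihood test). Cxcl11 had 1.63, 2.19, 1.95 and 1.02 CPM and a log2 fold change of 0.36 (SE 0.39). With each library left out in turn, Cxcl10 ran from 0.60 to 1.87 and Cxcl9 from -3.33 without mCDC replicate 1 to -0.19 without vehicle replicate 2. None of the 3 was called, and Cxcr3 had 2, 2, 1 and 3 counts.

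Of the neutrophil attracting ligands, Cxcl1 alone was tested. It had 0.757, 0.32, 0.153 and 0.437 CPM and a log2 fold change of 0.89 (SE 0.69), highest in mCDC replicate 1. That fold change was 0.10 without mCDC replicate 1 and 1.82 without vehicle replicate 2. Cxcl5 had 3, 5, 3 and 2 counts, Cxcl2 had 2 counts in all, and Cxcl3 had none. Their receptor Cxcr2, by contrast, was the conventional receptor with the most counts, at 5.69, 5.24, 4.78 and 5.46 CPM. It varied little, with a log2 fold change of 0.10 (SE 0.22). Markers of neutrophils were low, summing to 1.78, 1.57, 1.68 and 2.27 CPM, with 2 of them tested and none called. Csf3r had 0.836, 0.655, 0.654 and 1.79 CPM, S100a8 0.32 CPM or less and S100a9 0.0364 CPM or less. Of the 31-base words of Cxcr2, 10.7% occur in other listed genes. The cells or reads behind the count of Cxcr2 were not tested.

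Ccl11, or eotaxin, attracts eosinophils through Ccr3. It had 5.87, 4.29, 3.59 and 7.39 CPM, with both vehicle libraries outside the mCDC range, and a log2 fold change of -0.11 (SE 0.35). Ccr3 had no count. Ccl24, the related ligand of Ccr3, had 10, 6, 9 and 15 counts and was not tested.

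Among the ligands known from epithelia, Ccl27a, a ligand of Ccr10, had 8.9, 7.65, 8.54 and 10.5 CPM and a log2 fold change of -0.20 (SE 0.20). 57% of its 31-base words occur in other listed genes, so its level is uncertain. Ccl28, also a ligand of Ccr10, had 0.136, 0.412, 0.536 and 0.73 CPM, lower in both mCDC libraries, and a log2 fold change of -1.21 (SE 0.62, adjusted p = 0.731 by edgeR's quasi-likelihood test). Leaving out mCDC replicate 1 gave -0.61 for Ccl28, and leaving out mCDC replicate 2 gave -2.03. Ccl25 had 0.947, 1.0, 0.725 and 0.8 CPM, higher in both mCDC libraries by a small margin, and a log2 fold change of 0.35 (SE 0.39). Ccr10 had 7, 2, 10 and 6 counts.

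Of the other atypical receptors, Ackr1 carries chemokines across venular endothelium and Ackr2 scavenges inflammatory CC chemokines on lymphatic endothelium. Ackr1 had 1.7, 0.822, 0.839 and 1.75 CPM, with 1 high and 1 low library in each group and a log2 fold change of -0.01 (SE 0.49). 23% of its 31-base words lie in Cadm3, which overlaps it, so the 2 genes' reads may be divided between them. Ackr2 had 0.606, 0.274, 0.458 and 0.8 CPM and a log2 fold change of -0.48 (SE 0.57).

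Summed over all 62 members, chemokine genes held 180 and 229 CPM with mCDCs and 143 and 210 CPM with vehicle. Ligands held 147, 195, 113 and 166 CPM and receptors 33.4, 33.1, 29.2 and 44.4 CPM. The groups overlapped in each of the 3 sums, and the high ligand sum of mCDC replicate 2 includes its 76.7 CPM of Cx3cl1.

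Levels of different genes were compared as CPM per kilobase of the longest annotated transcript. On this scale Cxcl14 led with 14.6 on average (7.48 to 21.9 over the 4 libraries), followed by Cx3cl1 with 11.7 (6.88 to 23.1), Cxcl12 with 10.3 (8.37 to 13) and Ccl27a with 8.94 (7.68 to 10.6). These 4 ranges overlap. The order of the group means differed. Cx3cl1 had 16 with mCDCs and 7.33 with vehicle, where Cxcl14 had 11.9, Cxcl12 11 and Ccl27a 9.57. The mCDC mean of Cx3cl1 rests largely on replicate 2, its highest library at 23.1. In CPM, Cx3cl1 had 29.6 in mCDC replicate 1 and 76.7 in mCDC replicate 2. Ackr3, at 6.19 (5.4 to 7.73), was the leading receptor, and the next, Cxcr2, at 1.74 (1.57 to 1.87), lay below it in every library. Ccl11, at 4.88 (3.31 to 6.83), overlapped with Ackr3, and Ccl6, at 1.98 (0.98 to 2.98), overlapped with Cxcr2. The Ccl21 rows were left out of this order, because the annotated transcript of Ccl21b holds the coding sequence only.

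**Figure D4:**
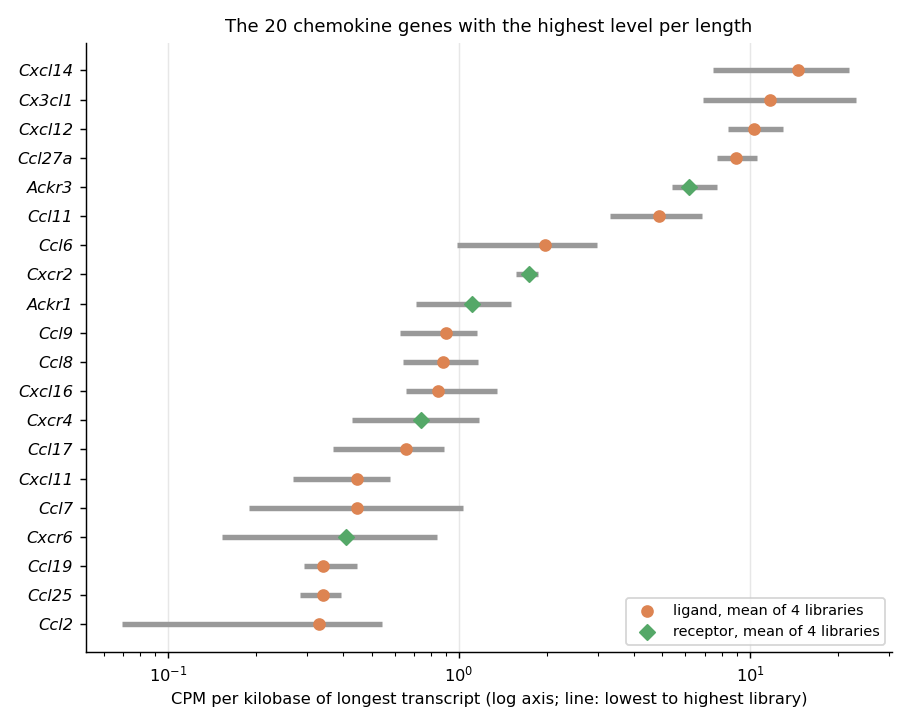
CPM per kilobase of longest transcript on a log axis for the 20 members with the highest mean, Ccl21 rows left out; points are means of the 4 libraries (circles ligands, diamonds receptors) and lines run from the lowest to the highest library. Cxcl14, Cx3cl1, Cxcl12 and Ccl27a have overlapping lines at the top, and Ackr3 leads the receptors.

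Genes around the chemokine system were counted in 7 lists with 91 tested genes, of which 2 were called higher and 5 lower, where 1.26% of all tested genes were called higher and 2.74% lower. Of 14 tested genes on the list of NF-kB and cytokine inducers, Myd88, the adaptor of Toll-like and interleukin-1 receptors, was called higher, and the median log2 fold change was 0.22. Myd88 had 12.8, 14.2, 6.98 and 8.51 CPM, above the vehicle libraries in both mCDC libraries, a log2 fold change of 0.80 (SE 0.19, adjusted p = 0.567 by edgeR's quasi-likelihood test). The cytokines on that list were near 0, with Il1b at 0.109 CPM or less, Tnf at 0.182 CPM or less and Il6 at 0.189 CPM or less. Of 14 tested interferon gamma response genes, Gbp5 was called lower, with 1.57, 0.731, 1.86 and 3.64 CPM, and Ifng itself had 0.0379 CPM or less. The log2 fold change of Gbp5, -1.24, was -0.69 without vehicle replicate 2. Of 7 tested genes of the Il4 and Il13 response, the receptor gene Il13ra1 was called higher, with 11.9, 21.2, 10.5 and 8.77 CPM and a log2 fold change of 0.78 that was 0.30 without mCDC replicate 2.

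Of 23 tested genes of chemokine receptor signalling, Elmo1, which links receptors to Rac through Dock proteins, was called lower and none higher, with 2.13, 2.51, 3.51 and 5.76 CPM and a log2 fold change of -1.0 (SE 0.31, adjusted p = 0.643 by edgeR's quasi-likelihood test). Of 12 tested genes that desensitize receptors, the receptor kinase gene Adrbk2 and Rgs5, which speeds G protein shutdown and also marks pericytes, were called lower. Adrbk2 had 1.02, 1.19, 1.34 and 3.64 CPM, and its log2 fold change of -1.18 was -0.28 without vehicle replicate 2. That of Rgs5 was -0.60. Of 14 tested genes that process or present chemokines, Mmp2, a protease that trims chemokines and matrix, was called lower, with 23.3, 23.9, 31.1 and 43.3 CPM. Without vehicle replicate 2, the log2 fold changes of Elmo1 and Mmp2 were -0.60 and -0.40. None of the 7 tested chemokine genes outside the naming rule was called. Of these, Mif and its receptor chain Cd74 had 80.6 to 116 and 19.8 to 39.1 CPM over the 4 libraries, and the platelet chemokines Pf4 and Ppbp 1.6 to 2.16 and 0.777 to 1.68 CPM.

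Marker genes of the cells that make or carry chemokines also differed between libraries, and their part in the results above was not tested. Beside the counts that follow, 1.26% of all tested genes were called higher and 2.74% lower. Of 13 tested macrophage markers, Cd68 was called higher and Csf1r lower, with a median log2 fold change of -0.25 and summed levels of 60.1, 64.1, 51.1 and 86.6 CPM. Cd68 had 4.13, 15.4, 2.71 and 4.15 CPM, highest in mCDC replicate 2 as Cx3cl1 was, and its log2 fold change of 1.49 was 0.27 without that library. Of 7 tested satellite cell and myoblast markers, Pax7, Myod1 and Myog were called higher. Myog, with 32.6, 63.3, 21.3 and 24.4 CPM, was highest in mCDC replicate 2, while Myod1, with 50.4, 30.5, 19.1 and 26 CPM, and Pax7, with 2.99, 2.88, 1.87 and 1.6 CPM, were highest in mCDC replicate 1. Leaving out mCDC replicate 2 took the log2 fold change of Myog from 1.07 to 0.51, and leaving out mCDC replicate 1 took Myod1 from 0.84 to 0.44. Of 9 tested markers of pericytes and smooth muscle, Cspg4, with 61.7, 105, 51.8 and 56.2 CPM, was called higher and Rgs5, with 14.4, 13.2, 20.8 and 21.2 CPM, lower, with a median log2 fold change of -0.04 over the list. Cspg4 went from 0.63 to 0.19 when mCDC replicate 2 was left out. Of 12 tested blood endothelial markers, Vwf was called lower, the median log2 fold change was -0.53, and the summed levels were 365, 516, 333 and 535 CPM. Of 12 tested markers of fibroblasts and fibro-adipogenic progenitors, Pdgfra, Lum and Smoc2 were called lower, and the summed levels were 455, 406, 422 and 732 CPM. Without vehicle replicate 2 the log2 fold changes of Pdgfra, Lum and Smoc2 were -0.23, -0.47 and -0.28, in place of -0.74, -1.02 and -0.69, and those of Csf1r and Vwf were -0.30 and -0.55, in place of -0.67 and -0.90. Vehicle replicate 2 was the highest library in the macrophage, endothelial and fibroblast sums, as it was for Cxcl12, Cxcr4, Ackr3, Ccr2 and Cxcl16. The summed levels of dendritic cell markers, without members, were 13.3, 16.4, 9.4 and 22.5 CPM, and none of the 5 tested was called.

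Promoters were read for 46 of the 62 members, in 53 windows of the 250 bases before a RefSeq start site on GRCm38.p6. The NF-kB consensus, searched on both strands, was found in 11 of the 53 windows (20.8%) and in 7.25% of 32851 windows of all genes. The TATA box letters TATAAA, also on both strands, were found in 15 of the 53 windows (28.3%) and in 12.4% of all. Neither motif contains the letters of the other. The members with a match to the NF-kB consensus were Cxcl1, Cxcl2, Cxcl3, Cxcl10, Ccl1, Ccl9, Ccl20, Ccr1, Ccr3, Ccr6 and Ackr2, of which Cxcl1, Cxcl10, Ccl9 and Ackr2 were tested and none was called. The Cxcl10 window, chr5:92348890-92349139 on the minus strand, is shown because it holds matches at separate places, given in capitals.
Cxcl10 promoter: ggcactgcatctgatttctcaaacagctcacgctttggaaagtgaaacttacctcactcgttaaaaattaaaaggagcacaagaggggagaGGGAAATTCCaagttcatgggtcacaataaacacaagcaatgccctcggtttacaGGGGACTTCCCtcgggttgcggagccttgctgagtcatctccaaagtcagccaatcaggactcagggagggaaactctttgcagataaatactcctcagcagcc
A match is a run of letters and not a measured binding site.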

How the data were processed

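Total RNA of 4 soleus muscles was sequenced as 75-base single-end reads. The authors deposited unnormalized expected counts by gene, which RSEM estimated from reads mapped to a UCSC transcript set; the submitters' processing notes name Bowtie2 2.1.0, RSEM 1.2.15 and the build mm10. The labels name the TruSeq Stranded mRNA kit and the paper's methods the xGen Broad-Range kit, and whether counting used strand is not given in the sources used here. 0 columns of the table belonged to no sample.

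Groups came from the sample labels. Expected counts were rounded and tested across the whole table with edgeR 4.0.16 in R 4.3.3. Low counts were filtered by filterByExpr, library sizes were scaled with TMM (trimmed mean of M-values), and the quasi-likelihood F-test was run with legacy = FALSE and Benjamini-Hochberg adjustment over all tested genes. Thresholds followed the paper's methods, where the kind of edgeR test is not named. Standard errors (SE) were computed from the log2 fold change and its F statistic, as size over root F. With 2 muscles per group, p-values measure the spread between these samples, and intervals and floors cover counting error only. The script was tested on simulated data with known fold changes.

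The members, gene lists and marker lists were chosen with earlier results of these data known. Values in every library are given for called members, the 20 tested members with the highest mean CPM, the Ccl21 copies and a set of ligand and receptor pairs; other members were named after their values were seen. 1 tested member counted in the totals is not reported here by name. Shared 31-base words and transcript lengths came from GENCODE M21 transcripts of GRCm38, promoters from RefSeq. Alternatives were DESeq2 1.42.0, RLE size factors, other filters on low counts, no rounding, the legacy test, the replicate number as a block, leaving out each library, and other sums of the Ccl21 copies.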

Additional observations from a re-analysis of the deposited data

How the results depend on the processing

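The count of members called higher, 2, was 1 with DESeq2 (Ccl21b), 1 with at least 10 counts in every sample (Cx3cl1, 18 members tested), 3 with no filter on low counts (Ccl21b, Ccl4 and Cx3cl1), and 1 to 7 with each library left out. The count of members called lower, 1, was 0 with DESeq2, 3 with no filter on low counts (Ackr4, Ccl5 and Ccr9), 0 with at least 10 counts in every sample, and 0 to 3 with each library left out. Ccl21b alone was called higher without vehicle replicate 1, Ccl21b and Ccl21c without mCDC replicate 2. Without mCDC replicate 1, 7 members were called higher (Ccl21b, Ccl6, Ccl7, Cx3cl1, Cxcl10, Cxcl14 and Cxcr6) and Ccl21a, Ccl21c and Cxcl9 lower. Without vehicle replicate 2, 6 were called higher (Ccl2, Ccl21b, Ccl6, Cx3cr1 and Cxcl14 among them), and without vehicle replicate 1, Ccr2, Cxcl16 and Cxcl9 were called lower. Over all genes, leaving out a library gave 112 to 397 calls higher and 236 to 834 lower, and on the pathway lists 2 to 5 higher and 2 to 16 lower. A group left with 1 library was assumed to vary like the other. The cause of these shifts was not tested. Over all genes, DESeq2 called 157 higher and 270 lower of 18132, the fit with no filter 207 and 466 of 18132 (54 members were tested in each), and the minimum of 10 counts 156 and 351 of 12862.

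The summed Ccl21 copies ran from -1.30 to 0.23 with each library left out, and stood at 0.51 with Ccl21a, Ccl21b and Ccl21c alone. Without Gm1987, an alternative chosen after seeing the data, the sum was at -0.22. Among single members, Xcr1, at -0.00, changed sign with DESeq2 (0.03), RLE size factors (0.00344), unrounded counts (0.01), the legacy test (0.01) and the replicate block (0.03). With each library left out, these members changed sign: Ackr1 (-0.66 to 0.61), Ackr3 (-0.41 to 0.10), Ccl11 (-0.53 to 0.50), Ccl17 (-0.88 to 0.37), Ccl21a (-2.39 to 0.18), Ccl21c (-6.91 to 7.64), Ccl9 (-0.27 to 0.57), Ccr2 (-1.48 to 0.46), Ccr4 (-0.91 to 0.22), Cx3cr1 (-0.23 to 1.42), Cxcl11 (-0.04 to 0.90), Cxcl12 (-0.44 to 0.07), Cxcr4 (-1.02 to 0.10) and Xcr1 (-0.30 to 0.39). Beside the members given with such values above, Ackr2 (-1.19 to -0.02), Ccl27a (-0.34 to -0.04), Ccl8 (0.09 to 0.61) and Cxcr2 (0.01 to 0.20) moved by over 1.5 times without a change of sign. Of 204 values of single members under the other settings, 194 kept their direction and their side of the threshold. With a library left out, 23 of 124 values changed sign. Both counts leave out the tested member that is not reported by name.

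The labels number the libraries 1 and 2 in both groups, and no source says that the numbers pair them. Across 13652 genes, the differences between replicates 1 and 2 of the groups correlated at -0.0388. With the replicate block, 4 members were called higher (Ccl21b, Ccl6, Cx3cl1 and Cxcl14) and 0 lower, and 172 genes were called higher and 308 lower over all genes. Most members lie under 1 CPM, where a few reads set the fold change.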
